A study of Mus musculus with 8 samples.

Results

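The plasminogen activator system was described in a TGF-β treated mouse kidney line through 9 genes, taken from the 22274 rows of the deposited table by their gene symbols: Plau, Plat, Plaur, Serpine2, Serpinb2, Serpinb6a, Serpinf1, Plgrkt and S100a10. All 9 were found once each, and all 9 were among the 13702 genes tested. RNA sequencing had been done on 8 libraries of the line RFB, which the labels give as kidney fibroblasts. The design text speaks of cells with a knock-down of SUV39H1, whereas the samples are labelled ad-CRE (4 libraries) and ad-GFP (4 libraries). Names of this form are usual for adenoviruses that carry Cre, a recombinase that cuts out DNA between loxP sites, or the marker GFP. TGF-β, a cytokine that drives matrix production, had been given in both groups, so no library shows the line without it. The labels used here state neither the floxed allele, the TGF-β dose and time, nor whether the replicates were separate cultures. The p-values thus rest on a spread among libraries that may be technical only.

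Plasminogen is a circulating zymogen that is cut to plasmin, a protease that dissolves fibrin and degrades matrix proteins. The cut is made by urokinase, encoded by Plau, or by tissue plasminogen activator, encoded by Plat. Urokinase works at the cell surface on its receptor, encoded by Plaur, and both activators are held back by serpins, inhibitors that trap a protease in a covalent complex. In kidney, urokinase is made by tubular epithelium and the system has long been studied for its part in matrix turnover during fibrosis.

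The promoter sequences that could be matched are shown first, for 3 of the 4 genes that had a matched promoter and moved between the groups: Plaur, which rose in ad-CRE, and the inhibitors Serpine2 and Serpinb2, which fell. RefSeq promoters of GRCm38.p6, each holding 250 bases before and 50 after an annotated gene start, were found for 6 of the 9 genes. Plau, Plat and S100a10 had no entry. Capitals mark matches to an AP-1 element (TGANTCA), a GC box (GGGCGG, read on both strands) or a TATA box (TATAAA, read on both strands); a cAMP response element (TGACGTCA) was searched too. All motifs and the 3 promoters printed were chosen after the values of the genes were known, and matches that touch or overlap run together. The promoters lie at chr7:24462233-24462532 (plus strand) for Plaur, chr1:79858616-79858915 (minus strand) for Serpine2 and chr1:107511173-107511472 (plus strand) for the first of 2 Serpinb2 promoters.
Plaur: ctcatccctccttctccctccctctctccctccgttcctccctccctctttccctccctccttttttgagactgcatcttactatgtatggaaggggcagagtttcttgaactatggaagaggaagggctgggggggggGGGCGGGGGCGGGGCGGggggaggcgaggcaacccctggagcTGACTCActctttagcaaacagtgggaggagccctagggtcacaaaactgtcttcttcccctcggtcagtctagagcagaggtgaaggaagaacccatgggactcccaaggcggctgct
Serpine2: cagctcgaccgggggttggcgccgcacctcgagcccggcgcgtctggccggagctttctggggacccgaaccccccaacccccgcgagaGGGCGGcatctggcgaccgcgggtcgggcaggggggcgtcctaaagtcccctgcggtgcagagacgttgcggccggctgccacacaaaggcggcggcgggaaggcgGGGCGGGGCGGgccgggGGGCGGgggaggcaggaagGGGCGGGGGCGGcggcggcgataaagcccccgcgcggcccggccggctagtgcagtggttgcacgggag
Serpinb2: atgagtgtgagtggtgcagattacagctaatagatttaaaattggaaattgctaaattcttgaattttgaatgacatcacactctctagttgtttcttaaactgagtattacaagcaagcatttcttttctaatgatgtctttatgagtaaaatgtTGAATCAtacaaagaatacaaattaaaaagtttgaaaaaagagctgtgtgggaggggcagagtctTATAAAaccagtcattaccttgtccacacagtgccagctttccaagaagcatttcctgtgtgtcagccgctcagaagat

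The Plaur promoter held 1 AP-1 element, which begins 69 bases before the start, and 3 GC boxes. The Serpine2 promoter held 6 GC boxes, no AP-1 element and no TATA box, with a GC content of 77.7%. The first Serpinb2 promoter had a GC content of 35.3%, a TATA box beginning 29 bases before the start and an AP-1 element beginning 94 bases before it. Counted from the second annotated start of Serpinb2, the same elements begin at −116 and −181. The promoter of Serpinf1, which fell too, held none of the motifs searched. Of the genes that did not pass, Plgrkt had 2 GC boxes and Serpinb6a had 3 in 1 of its 2 promoters. Of 32851 promoters of the same length, 7.81% held the AP-1 letters, 35.7% the GC box and 13.6% the TATA box. The cAMP response element was found in none of the 8 promoters of the 6 genes, beside 1.79% of all promoters. These matches describe letters in a window and do not show binding.

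Levels are given as CPM (read counts scaled to library size with TMM factors) or, for comparisons between genes, as the authors' FPKM, which also divides by gene length. A gene was said to pass when the edgeR quasi-likelihood test gave a Benjamini-Hochberg adjusted p under 0.05 over all genes tested. In ad-CRE 3 of the 9 genes rose (Plau, Plaur and S100a10), 4 fell (Plat, Serpine2, Serpinb2 and Serpinf1) and 2 did not pass (Serpinb6a and Plgrkt). The 7 that passed make 77.8% of the 9 genes, beside 73.1% of all genes tested, of which 36.8% rose and 36.3% fell. No overlap between the groups was seen for 7 of the 9, beside 66.2% of all genes tested. Passing with 1 log2 unit or more of change held for 4 of the 9, beside 14.3% of all genes tested. The median log2 fold change was −0.04 over the 9 genes, beside a median of 3.87e-05 over all genes tested. Serpinb2 passed the filter on low counts only through its ad-GFP libraries and so had to differ. Among the other 8 genes, which reached the filter level of 0.516 CPM in every library, 3 rose and 3 fell, 3 passed with 1 log2 unit or more of change, and the median was 0.04. The shares of all genes tested were not counted over genes at that level in every library, so they cover a different gene set.

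**Figure D1:**
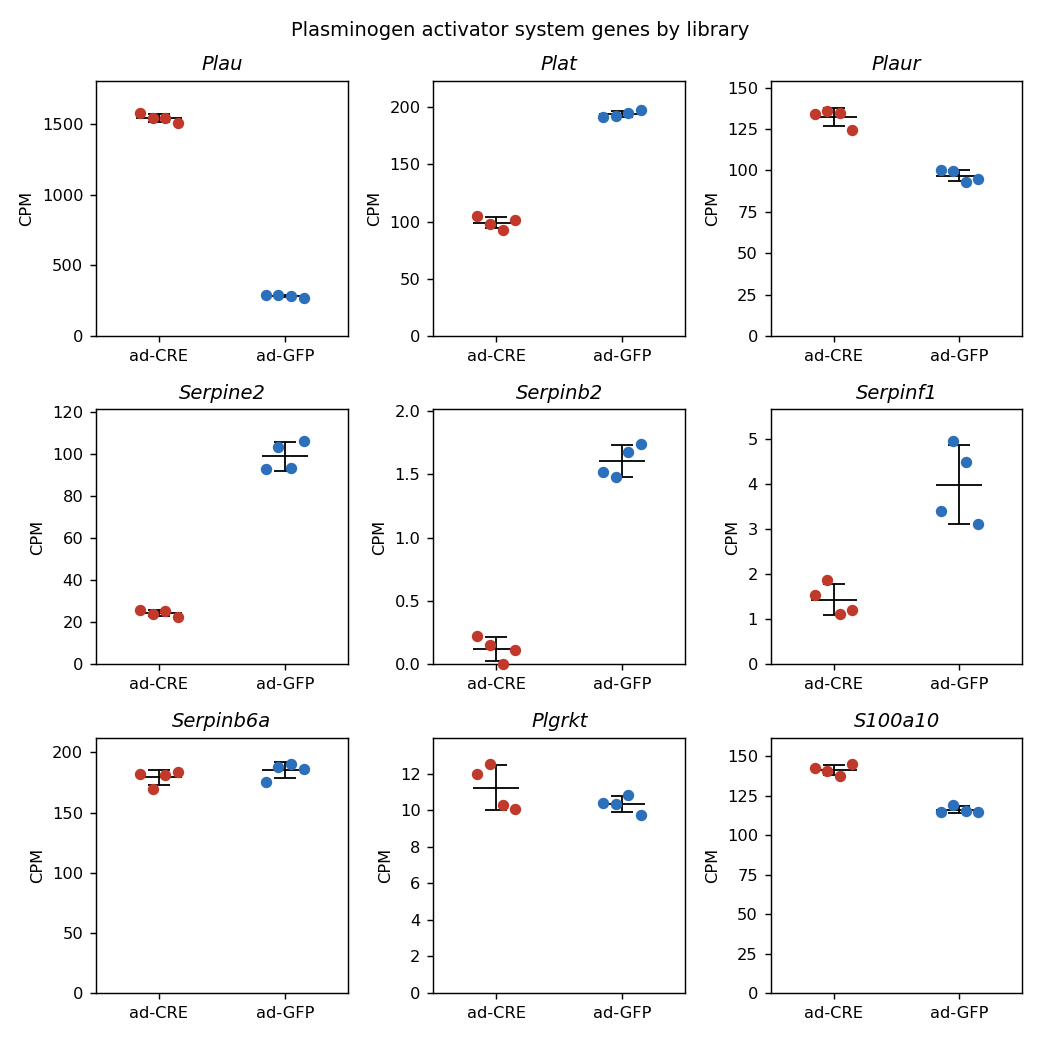
Level of each gene in CPM (vertical axes, from 0, scaled per gene) in the 4 ad-CRE and the 4 ad-GFP libraries; points are libraries in the order of their replicate number, horizontal lines the mean and bars the SD. Plau stood between 1512 and 1577 CPM in ad-CRE and between 272 and 293 CPM in ad-GFP, whereas the groups overlapped for Serpinb6a and Plgrkt.

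Of the activators, urokinase transcripts rose and tissue activator transcripts fell. Plau (ENSMUSG00000021822, GRCm38 chromosome 14, 20836660 to 20843385, plus strand, protein-coding) had 1577, 1545, 1542 and 1512 CPM in ad-CRE replicates 1 to 4, against 288, 293, 286 and 272 CPM in ad-GFP replicates 1 to 4. Every ad-CRE library lay far above every ad-GFP library, and the replicates of each group lay close together. The level in ad-CRE was 5.42 times that in ad-GFP (2.44 log2 units, SE 0.025, edgeR adjusted p = 1.47e-34), rank 51 among the genes tested when ordered by rise. On the per-length FPKM scale Plau took rank 48 of all rows in ad-CRE and rank 479 in ad-GFP. It held 0.149% to 0.156% of all reads in the ad-CRE libraries and 0.0274% to 0.0296% in the ad-GFP libraries.

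Plat (ENSMUSG00000031538, chromosome 8, 22757727 to 22782844, plus strand, protein-coding) had 105, 97.6, 92.8 and 101 CPM in ad-CRE replicates 1 to 4, against 191, 192, 195 and 197 CPM in ad-GFP replicates 1 to 4. The groups did not overlap, and the fall to 0.511 of the ad-GFP level was far larger than the spread within either group. In log2 units the change was −0.97 (SE 0.034, edgeR adjusted p = 1.74e-21). The activators thus moved in opposite directions in the same libraries.

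Per length, the makeup of the activator transcripts differed between the groups. Plau made 94.1% to 94.7% of the summed Plau and Plat FPKM in the ad-CRE libraries and 59.8% to 62.2% in the ad-GFP libraries. The ratio of Plau to Plat FPKM was 16.8 ± 0.847 in ad-CRE and 1.58 ± 0.069 in ad-GFP (mean ± SD, n = 4 each). Such ratios within a library do not depend on how libraries are scaled; the pairs were chosen after the values were known. As the groups lie apart for each gene, they describe the libraries and were not tested.

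The urokinase receptor rose far less than its ligand. Plaur (ENSMUSG00000046223, chromosome 7, 24462484 to 24475968, plus strand, protein-coding), which anchors urokinase to the cell membrane, had 134, 136, 135 and 124 CPM in ad-CRE replicates 1 to 4, against 100.2, 99.6, 93.0 and 94.8 CPM in ad-GFP replicates 1 to 4. The groups did not overlap, although ad-CRE replicate 4 stood below the other ad-CRE libraries. Plaur rose 1.36-fold (log2 fold change 0.45, SE 0.036, edgeR adjusted p = 1.46e-12). Its 95% interval of 0.38 to 0.52 log2 units lies below that of Plau, 2.39 to 2.49. The ratio of Plau to Plaur FPKM was 7.51 ± 0.231 in ad-CRE and 1.89 ± 0.060 in ad-GFP (SD, n = 4 each).

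**Figure D2:**
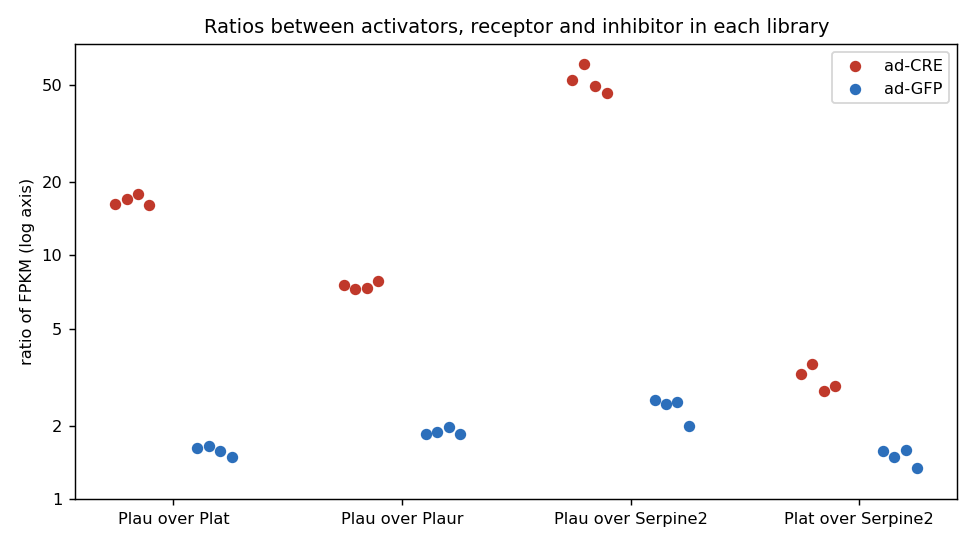
Ratio of FPKM between pairs of genes (vertical log axis) in each library, with ad-CRE libraries left of ad-GFP libraries in every pair. All 4 ratios were higher in each ad-CRE library than in any ad-GFP library, with Plau over Serpine2 at 46.6 to 61.1 in ad-CRE and 1.99 to 2.54 in ad-GFP.

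Of the 4 serpins among the 9 genes, 3 fell and 1 did not pass, whereas 36.3% of all genes tested fell. The 3 include Serpinb2, tested only through its ad-GFP libraries, and Serpinf1, whose product does not inhibit proteases. Serpine2 (ENSMUSG00000026249, chromosome 1, 79794197 to 79861180, minus strand, protein-coding) encodes protease nexin-1, which inhibits thrombin, urokinase and tissue activator. It had 25.8, 23.9, 25.4 and 22.7 CPM in ad-CRE replicates 1 to 4, against 92.6, 103, 93.5 and 106 CPM in ad-GFP replicates 1 to 4. All 4 ad-CRE libraries lay far below the lowest ad-GFP library. Serpine2 was 4.03-fold lower in ad-CRE (log2 fold change −2.01, SE 0.051, edgeR adjusted p = 6.26e-25). The ratio of Plat to Serpine2 FPKM was 3.12 ± 0.365 in ad-CRE and 1.49 ± 0.111 in ad-GFP (SD, n = 4 each), so that this ratio was higher in ad-CRE although Plat itself fell.

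The FPKM values of Serpine2 carry an extra source of spread. The gene length that the deposited values imply, the count divided by FPKM and by the library total, was 2.34 kb for Plau in every library. For Serpine2 it ran from 1.64 to 2.21 kb over the ad-CRE libraries and from 1.81 to 2.02 kb over the ad-GFP libraries. Its 6 annotated transcripts differ in length, and how the authors weighted them is not known here. Its CPM values do not depend on this length.

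Serpinb2 (ENSMUSG00000062345, chromosome 1, 107511423 to 107535478, plus strand, protein-coding) encodes plasminogen activator inhibitor type 2, an inhibitor of urokinase that is best known from macrophages. It was scarce in both groups, with 5, 3, 0 and 2 reads in ad-CRE replicates 1 to 4, against 32, 29, 29 and 28 reads in ad-GFP replicates 1 to 4. The groups did not overlap. Scaled to library size, the 10 ad-CRE reads and 118 ad-GFP reads give a level 12.8-fold lower in ad-CRE, with an exact 95% counting interval of 6.71 to 27.3. The fitted change was −3.61 log2 units (SE 0.395, edgeR adjusted p = 1.77e-09). Serpinb2 was tested only because of its ad-GFP libraries. Its passing on any scale and the lack of overlap are therefore no separate support for the fall. On the log2(FPKM + 1) scale, where the added 1 shrinks the change of a gene this low, it was −0.73 and on the log2(FPKM + 0.1) scale −2.34, and it passed on both. Its exons overlap those of Serpinb10 on the same strand, a gene that is not among those tested.

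Serpinf1 (ENSMUSG00000000753, chromosome 11, 75409769 to 75422701, minus strand, protein-coding) encodes pigment epithelium-derived factor, a secreted serpin that does not inhibit proteases and is known as an inhibitor of angiogenesis. It had 34, 36, 24 and 21 reads in ad-CRE replicates 1 to 4, against 72, 97, 78 and 50 reads in ad-GFP replicates 1 to 4. Scaled to library size these are 1.11 to 1.87 CPM in ad-CRE and 3.11 to 4.95 CPM in ad-GFP, which do not overlap but vary by 24.1% and 21.9% of their means. The change was −1.48 log2 units (SE 0.199, edgeR adjusted p = 9.9e-08), with a 95% interval of −1.88 to −1.07.

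Serpinb6a (ENSMUSG00000060147, chromosome 13, 33917918 to 34002794, minus strand, protein-coding) encodes an intracellular serpin of broad reach over serine proteases. It had 182, 170, 181 and 184 CPM in ad-CRE replicates 1 to 4, against 176, 188, 191 and 186 CPM in ad-GFP replicates 1 to 4. The groups overlapped and the difference did not pass, with a log2 fold change of −0.04 (95% interval −0.11 to 0.02, edgeR adjusted p = 0.207). It passed when libraries were scaled by their totals alone (−0.072, edgeR adjusted p = 0.0412), with a filter of 5 CPM in 4 libraries (edgeR adjusted p = 0.0446) and without ad-GFP replicate 1 (edgeR adjusted p = 0.0469). Its annotated exons overlap exons of Nqo2 and Ripk1 on the opposite strand, and the use of strand in counting is not stated, so reads of these genes may be counted together.

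S100a10 (ENSMUSG00000041959, chromosome 3, 93555080 to 93564643, plus strand, protein-coding) encodes p11, a small protein whose complex with annexin A2 binds plasminogen. It had 142, 141, 138 and 145 CPM in ad-CRE replicates 1 to 4, against 115, 119, 116 and 115 CPM in ad-GFP replicates 1 to 4. The groups did not overlap, and the rise was 1.22-fold (log2 fold change 0.28, SE 0.031, edgeR adjusted p = 1.69e-09). Plgrkt (ENSMUSG00000016495, chromosome 19, 29348599 to 29367390, minus strand, protein-coding), a membrane protein that binds plasminogen through a lysine at its carboxyl end, had 11.99, 12.5, 10.3 and 10.1 CPM in ad-CRE replicates 1 to 4, against 10.4, 10.4, 10.8 and 9.75 CPM in ad-GFP replicates 1 to 4. The groups overlapped, and the log2 fold change of 0.12 did not pass (95% interval −0.06 to 0.30, edgeR adjusted p = 0.225).

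**Figure D3:**
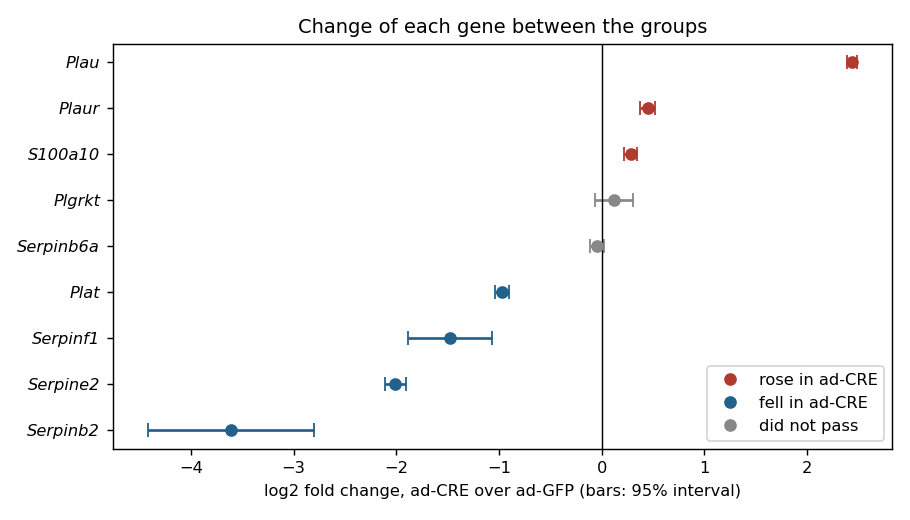
Log2 fold change of each gene, ad-CRE over ad-GFP (horizontal axis, edgeR), with 95% intervals as bars; the vertical line marks no change. Values run from −3.61 for Serpinb2, the gene with the widest interval, to 2.44 for Plau.

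The order of the genes by FPKM, a per-length level, differed between the groups. In ad-CRE the order was Plau (653 FPKM, range 638 to 667), S100a10 (205 ± 4.61), Serpinb6a (129 ± 4.99), Plaur (87.1 ± 3.68), Plat (38.9 ± 2.01), Serpine2 (12.6 ± 1.30), Plgrkt (11.3 ± 1.25), Serpinf1 (1.18 ± 0.240) and Serpinb2 (0.095 ± 0.087). Of these neighbours, only Serpine2 and Plgrkt had overlapping ranges. In ad-GFP it was S100a10 (171 ± 3.36 FPKM), Serpinb6a (136 ± 5.14), Plau (123 ± 3.95), Plat (77.5 ± 1.01), Plaur (65.1 ± 2.47), Serpine2 (52.2 ± 4.58), Plgrkt (11.0 ± 0.441), Serpinf1 (3.47 ± 0.591) and Serpinb2 (0.813 ± 0.062), with no overlap between neighbours (SD, n = 4 in both groups). Plau thus stood first in ad-CRE and, below S100a10 and Serpinb6a, the third in ad-GFP, and Plat and Plaur changed places. In the authors' deposited table the log2 fold changes, which are ratios of mean FPKM, were 2.41 for Plau, −1.0 for Plat, 0.42 for Plaur and −2.05 for Serpine2.

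The libraries held 17572152 to 22297598 reads in ad-CRE and 15998257 to 20920828 reads in ad-GFP. Suv39h1, the histone H3 lysine 9 methyltransferase named in the series title, had 31.6 to 33.4 CPM in ad-CRE and 37.2 to 44.1 CPM in ad-GFP, a log2 fold change of −0.35 (edgeR adjusted p = 8.65e-07). Smarca4, which encodes the remodelling ATPase BRG1, had 29.9 to 37.3 CPM in ad-CRE and 276 to 299.6 CPM in ad-GFP (log2 fold change −3.07, edgeR adjusted p = 3.82e-31). Changes here therefore accompany a small fall of Suv39h1 and a large fall of Smarca4, which cannot be told apart in this design.

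Markers of cell types moved with the groups too. Among all genes tested 73.1% passed, 36.8% rising and 36.3% falling, and the marker counts stand beside that background. Of 9 tubular epithelial markers tested 7 rose and 1 fell, and the summed level of the 10 listed was 4050.3 to 4164 CPM in ad-CRE and 1907 to 2120.1 CPM in ad-GFP. Of 9 fibroblast markers tested 8 fell and 1 rose. Their list summed to 1868.5 to 1988 CPM in ad-CRE and 3489 to 3603 CPM in ad-GFP. Most of the fibroblast sum came from Vim (693 CPM in ad-CRE, 1614 CPM in ad-GFP) and Acta2 (1132 CPM in ad-CRE, 1645 CPM in ad-GFP). Most of the epithelial sum came from Krt8 and Krt18. Of 6 endothelial markers 6 fell (59.9 to 67.6 CPM in ad-CRE, 136 to 149 CPM in ad-GFP), and of 8 leukocyte and macrophage markers 7 fell (179 to 188 CPM in ad-CRE, 247 to 282 CPM in ad-GFP). Umod and Dcn passed the filter on low counts only through the group in which they are high; over the markers that reached the filter level in every library, 6 of 8 tubular epithelial markers rose and 1 fell, and 7 of 8 fibroblast markers fell and 1 rose. The background shares were not counted over genes at that level. No listed marker was at 0 in every library, but Slc34a1 of the proximal tubule and Fap of activated fibroblasts were under 1 CPM in both groups. The label fibroblast stands beside abundant epithelial transcripts. Cdh1, encoding E-cadherin, was at 484 ± 11.2 CPM in ad-CRE and 204 ± 9.57 CPM in ad-GFP (SD, n = 4 each). Krt8 was at 1983 ± 55.0 CPM in ad-CRE and 745 ± 45.5 CPM in ad-GFP (SD, n = 4 each). From the same list, Cdh16 went the other way, at 138 ± 7.95 CPM in ad-CRE and 218 ± 6.16 CPM in ad-GFP (SD, n = 4 each). Krt19 did not pass (log2 fold change 0.02, edgeR adjusted p = 0.559). Urokinase is made by tubular epithelium and tissue activator by endothelium, and the part of these markers in the changes of Plau and Plat was not tested. In such bulk libraries, fewer cells of a type and less RNA per cell cannot be told apart.

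Genes around the system were read from 5 lists, and each list moved in both directions. Their counts stand beside a background of 73.1% of all genes tested that passed, 36.8% rising and 36.3% falling. That background covers all genes tested, also where a list is narrowed below to genes at the filter level in every library. The share that passed was 50% for plasminogen and its binding sites, 87.5% for receptor partners, 63.6% for pro-urokinase activators and plasmin targets, 77.8% for other protease inhibitors and 100% for coagulation genes, in lists of 4 to 16 tested genes. Of 7 genes for plasminogen and its binding sites, 4 were tested: Krt8, a keratin that also binds plasminogen and is one of the epithelial markers, rose by 1.41 log2 units, Eno1, an enolase that does so too, fell by 0.44 log2 units, and Anxa2 (0.04, edgeR adjusted p = 0.112) and Hmgb1 (0.02, edgeR adjusted p = 0.514) did not pass. The median over these 4 was 0.03. Plasminogen itself was nearly absent: Plg had a mean of 0.013 CPM in ad-CRE and 0.0381 CPM in ad-GFP and was not tested.

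Of 16 receptor partners and clearance receptors tested, 6 rose and 8 fell, 2 missed the threshold, and the median was −0.09. Integrin subunits, which pair with the urokinase receptor at the membrane, went both ways. Itgav rose by 0.93, Itgb5 by 0.57, Itgb1 by 0.44 and Itga3 by 0.43 log2 units, whereas Itga5 fell to 173 ± 0.503 CPM in ad-CRE, against 395 ± 10.4 CPM in ad-GFP (SD, n = 4 each; log2 fold change −1.19, edgeR adjusted p = 2.67e-26).

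Among pro-urokinase activators and plasmin targets, 4 of 11 tested rose and 3 fell, 4 missed the threshold, and the median was 0.08. Over the 10 that reached the filter level in every library, 4 rose and 3 fell, and the median was −0.0049. St14 encodes matriptase, a membrane protease that activates pro-urokinase. It was at 289 ± 4.89 CPM in ad-CRE and 125 ± 8.07 CPM in ad-GFP (SD, n = 4 each), a rise of 1.21 log2 units (edgeR adjusted p = 7.7e-24). F2rl1, the protease-activated receptor cut by matriptase and trypsin, rose by 0.62 log2 units and Fn1, encoding fibronectin, by 0.36. Mmp9, a gelatinase made as a zymogen, fell by 1.47 log2 units and Ctsb, the lysosomal protease cathepsin B, by 0.44.

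Among other protease inhibitors, 9 were tested: 4 rose and 3 fell, 2 missed the threshold, and the median was −0.10. Over the 6 that reached the filter level in every library, 3 rose and 2 fell, and the median was 0.42, of the opposite sign. Spint1 and Spint2, Kunitz inhibitors of matriptase, rose by 0.93 and 1.07 log2 units. Serpinb9, an inhibitor of granzyme B, fell by 1.0 and Serpinb6b, a relative of Serpinb6a, fell by 0.79 log2 units. Reads that related serpins share could be split between them in counting, and how such reads were handled is not stated. Whether this touches the values of Serpinb6a and Serpinb6b was not tested.

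Of 10 coagulation genes and thrombin receptors tested, 4 rose and 6 fell, with a median of −0.67. F3, encoding tissue factor, the starter of coagulation, was at 517 ± 14.3 CPM in ad-CRE and 237 ± 5.67 CPM in ad-GFP (SD, n = 4 each), a rise of 1.13 log2 units (edgeR adjusted p = 1.17e-25). F2r, the main thrombin receptor, rose by 0.52 log2 units. Thbd, encoding thrombomodulin, and Procr, the endothelial protein C receptor, which together favour anticoagulant protein C, fell by 1.43 and 1.30 log2 units.

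**Figure D4:**
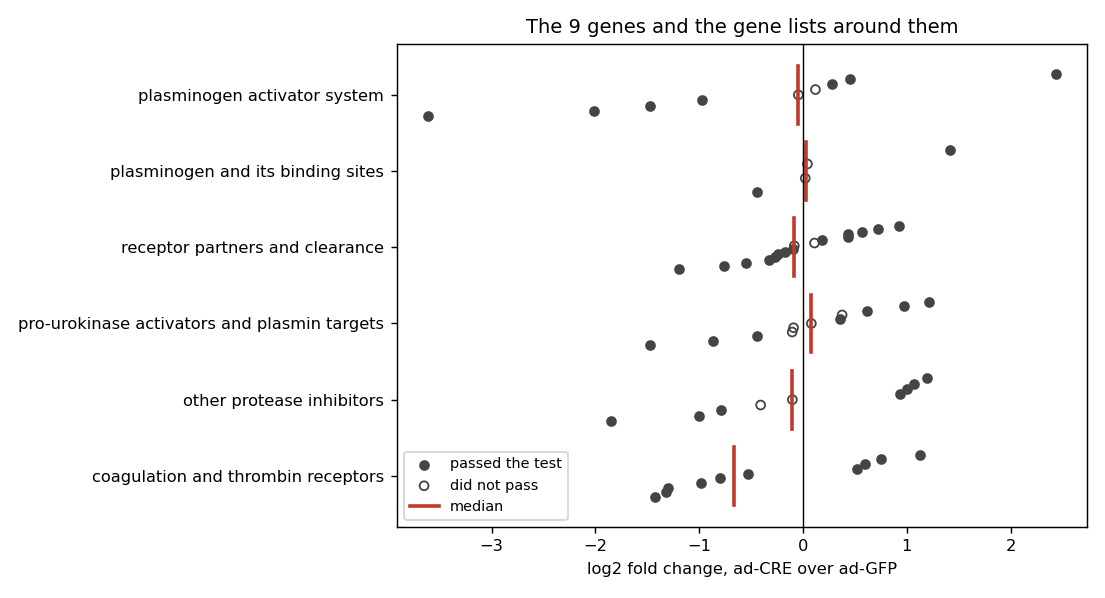
Log2 fold change, ad-CRE over ad-GFP (horizontal axis), of the 9 genes and of the tested genes of each of the 5 lists around them; filled points passed the test, open points did not, and red lines are medians. Medians run from −0.67 for coagulation genes and thrombin receptors to 0.08 for pro-urokinase activators and plasmin targets.

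The nearest tested protein-coding gene on either side of each of the 9 was also read, a choice made after the values were known. Of these 18 neighbours 10 rose, 5 fell and 3 did not pass, so that 83.3% passed, beside 73.1% of all genes tested. The neighbours of Plau, Camk2g and Vcl, rose by 0.35 and 0.43 log2 units, well below the 2.44 of Plau. Those of Plaur, Smg9 and Cadm4, rose by 0.36 and 0.73. Beside Serpine2, Mrpl44 did not pass (0.05, edgeR adjusted p = 0.385) and Cul3 fell by 0.08. The serpin gene Serpinb8, 54.5 kb from Serpinb2, rose by 1.20 log2 units (8.42 ± 1.29 CPM in ad-CRE, 3.67 ± 0.601 CPM in ad-GFP; SD, n = 4 each). Serpinb5, on the other side at 628.1 kb, was scarce, at 0.960 ± 0.309 CPM in ad-CRE and 0.471 ± 0.183 CPM in ad-GFP (SD, n = 4 each), and its groups overlapped (log2 fold change 1.01, edgeR adjusted p = 0.00831). Its ad-GFP mean lay under the filter level of 0.516 CPM, which it did not reach in every library. The passing of Serpinb5, counted among the 10 that rose, is therefore no separate support for a rise. Beside Serpinb6a, which did not pass, the serpin gene Serpinb9g at 421.9 kb fell by 3.93 log2 units (edgeR adjusted p = 3.93e-22). Bphl, on the other side of Serpinb6a, rose by 0.32. Cd274, which encodes the immune checkpoint ligand PD-L1, lies 0.1 kb beyond the outermost annotated 5′ end of Plgrkt. The matched Plgrkt promoter lies inside the gene span, at chr19:29361822-29362121, and so marks another start. Cd274 fell by 1.30 log2 units while Plgrkt did not pass.

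By Pearson correlation of log2 CPM over the 8 libraries, the genes most like Plau among the 6099 compared (mean log2 CPM 5 or more) were Rhoq, Pea15a, Lamb1, Ctnnd1 and Fermt1 (r of 0.9996 to 0.9998). They rose by 0.44 to 2.23 log2 units. The genes most like Serpine2 were Psmd5, Glud1, Renbp, Ap2m1 and Lpin3 (r of 0.9991 to 0.9995), all of which fell. The 8 points form 2 groups, so such values largely follow the difference between them: r was over 0.99 for 465 genes with Plau and for 371 with Serpine2.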

How the data were processed

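The labels' protocols name an RNeasy kit for extraction and a SMARTer kit for the libraries. GRCm38 and mm10 appear as builds in the submitters' processing notes; aligner, counter, annotation and strand setting are not stated. The authors deposited 1 table that holds, per the file headers, whole-number read counts and FPKM per library, mean FPKM, log2 fold change, and p-value with FDR. The counts may be rounded estimates, as 38 genes without any count have an FPKM above 0. All per-library columns were matched to samples by title. Of the gene IDs, 99.75% are in GENCODE M21 for GRCm38, which gave coordinates.

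R 4.3.3 with edgeR 4.0.16 was used on the counts: filterByExpr with the groups, TMM scaling, and the quasi-likelihood test with no term besides group. Adjustment ran over 13702 genes with a threshold of 0.05. The SE is the size of the log2 fold change divided by the square root of F, and 95% intervals use the fitted degrees of freedom. Chi-square per degree of freedom between replicates of the same group was 1.71 to 3.24, above sampling noise alone. Counting intervals cover counting error only. Alternatives used DESeq2 1.42.0, limma 3.58.1 and other filters, scalings and library subsets; figures used matplotlib 3.10.9.

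The 9 genes and the lists were chosen with earlier results of these data known. All 9 are named. Per list, naming was open to the 4 lowest p-values and the 2 highest CPM levels, and likeness was ranked for Plau and Serpine2. Cdh16 and Krt19 are named besides, as the tested tubular epithelial markers that did not rise. From the list of other protease inhibitors, 1 gene present in the table was removed after its values had been seen, and it is not reported here. The counts over genes at the filter level in every library, the FPKM ratios, implied gene lengths, neighbouring genes, promoter motifs (4 searched) and the 3 promoters printed were also chosen after the values had been seen.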

Additional observations from a re-analysis of the deposited data

Results flagged for a closer look

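Plaur in ad-CRE replicate 4 stood apart from the other libraries of its group, at 124 CPM beside 134 to 136 CPM in the other 3. It lay above every ad-GFP library. Of the 18 sets of 4 libraries examined (9 genes in 2 groups), this was the 1 set in which the gap to the nearest library passed the 95% limit of Dixon's test for 4 samples, and chance gives about 1 in 20.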

How the results depend on the processing

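The 7 genes that passed did so with the same sign under each of the 17 alternatives in which they were tested. Serpinb2 and Serpinf1 were not tested with the filter of 5 CPM in 4 libraries. As Serpinb2 entered the fit reported only through its ad-GFP libraries, its passing is no separate support for its fall. Plau ran from 2.40 to 2.45, Plat from −1.0 to −0.94, Plaur from 0.41 to 0.48, S100a10 from 0.26 to 0.30 and Serpine2 from −2.05 to −1.97 log2 units. Serpinf1 ran from −1.62 to −1.04 and Serpinb2 from −4.11 to −0.73, both nearest to 0 on the log2(FPKM + 1) scale, where the added 1 shrinks low genes. Serpinb2 was −3.18 without ad-CRE replicate 3, the library with 0 reads, and −4.11 without ad-CRE replicate 1.

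Serpinb6a, not past the threshold in the fit reported, passed at −0.072 when libraries were scaled by their totals alone (edgeR adjusted p = 0.0412) and at −0.069 with the filter of 5 CPM in 4 libraries (edgeR adjusted p = 0.0446). With 1 library left out it ran from −0.070 to −0.018, and the fit without ad-GFP replicate 1 passed (−0.070, edgeR adjusted p = 0.0469); over all alternatives its adjusted p ran from 0.0412 to 0.644, and the cause was not tested. Genes for plasminogen and its binding sites that rose numbered 2 with no filter beyond 1 read, as Anxa2 passed there (0.06, edgeR adjusted p = 0.0355), beside 1 in the fit reported. Scaling by total counts only moved the median of all genes to −0.03.

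No pairing by replicate number was seen, as deviations of same-numbered libraries correlated at −0.07 to 0.07. With 4 libraries per group this cannot decide whether a number marks a shared culture or day. With the replicate block, 9963 genes passed, beside 10022 without it, and it changed no call among the 9 genes. Depth limits Serpinb2, with 10 reads in all ad-CRE libraries.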
